A study of Rattus norvegicus with 18 samples.

Results

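The subunits of respiratory complexes II, III, IV and V were described in rat liver across 3 diets. The members were the genes whose probe sets carried a single symbol that was Sdha, Sdhb, Sdhc, Sdhd or Cyc1, or that began with Uqcr, Cox4, Cox5, Cox6, Cox7, Cox8 or Atp5, with the brightest probe set taken for each gene. This gave 45 of the 14217 genes measured: 4 of complex II, 8 of complex III, 17 of complex IV and 16 of complex V. No value entered for cytochrome c (Cycs), Uqcrb, Cox7a2, Atp5mc1 or Atp5mc2, because their probe sets carried several symbols. Cox5a lost a probe set for that reason and was read from another, with a mean level of 6.94. The 13 respiratory subunits encoded in mitochondrial DNA, some of them in complex I, were looked up by symbol, and 0 had a value. The symbol rule also took in Cox6c-ps1, a pseudogene, Cox7a2l, which takes part in joining complexes into supercomplexes, and Atp5if1, an inhibitor of the ATP synthase.

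The respiratory chain in the inner mitochondrial membrane passes electrons from nutrients to oxygen and pumps protons, and ATP synthase (complex V) uses the returning protons to make ATP. Succinate dehydrogenase (complex II) is also an enzyme of the citric acid cycle. Complex III passes electrons from ubiquinol to cytochrome c, and cytochrome c oxidase (complex IV) passes them on to oxygen. The liver relies on this chain to oxidise fatty acids during fasting and to power gluconeogenesis, and several subunits of complex IV exist in a form found in most tissues and another restricted to heart, muscle, lung or testis.

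RNA was taken from whole liver of adult male Sprague Dawley rats after 8 weeks of feeding and an overnight fast. The groups received chow, a high fat diet (HFD, labelled fatty liver), or the high fat diet plus an extract of pomegranate skin, given daily at 150 mg per kg (HFD+PE, labelled normal liver). No group received the extract on chow, and the composition of the extract is not given in the labels. Each group had 6 arrays, and values are log2 signals after RMA, a method that brings all arrays to the same distribution, so that a change is relative to the other genes on the array.

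A pair of arrays in each group (chow 3 with 4, HFD 1 with 2, HFD+PE 3 with 4) had 0 probe sets more than 2 log2 units apart, where the remaining 150 pairs had 18 to 109. Each pair was averaged and counted as 1 animal (chow 3-4, HFD 1-2 and HFD+PE 3-4), which left n = 5 animals per group. Over the members, the SD of the difference within these pairs was 0.13, 0.07 and 0.18. Over all probe sets the SD for the HFD+PE pair was 0.260, the same as the lowest among the remaining pairs, so that by this measure it was no closer than separate animals. Of 10 hepatocyte markers, 9 were measured, with levels from 8.2 to 15, while 10 markers of heart and skeletal muscle lay between 2.7 and 4.5. Of 12 macrophage markers, 6 were lower in HFD than in chow and 8 were lower in HFD+PE than in chow at an unadjusted p under 0.05. By that rule, 3.57% and 5.14% of all genes were lower. The median changes were −0.48 and −0.77, and 2 of the 12 were higher in HFD+PE than in chow. Of 10 stellate cell and matrix markers, 3 and 5 were lower by that rule, with medians of −0.22 and −0.35. Of 7 endothelial markers it was 1 and 1, with medians of −0.16 and −0.11. The 3 erythrocyte markers had medians of −0.34 and −0.26. None of these markers passed an adjusted p of 0.05. Their part in the members' values was not tested. In whole tissue, fewer cells of a type and less RNA per cell cannot be told apart.

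In none of the 3 comparisons did a member pass an adjusted p of 0.05 (limma, Benjamini-Hochberg over all genes), nor did any other gene (0% of genes in each). Outside the members, that count rests on how the arrays were counted: with the 18 arrays as separate animals, 145 genes passed between HFD+PE and chow, and without HFD+PE 3-4 it was 26, while the members stayed at 0. The smallest adjusted p among the members was 0.735 between HFD and chow, 0.993 between HFD+PE and HFD, and 0.407 between HFD+PE and chow. At an unadjusted p under 0.05, the HFD animals differed from chow in 0 of 45 members, against 7.65% of all genes (4.08% higher and 3.57% lower). HFD+PE differed from HFD in 2 members, against 2.7% of all genes: Cox6b2 was higher (1.64% of all genes) and Atp5mf lower (1.06%). HFD+PE differed from chow in 1 member, Cox6a1, which was lower, against 11.1% of all genes (6% higher and 5.14% lower). The F test over the 3 groups was under 0.05 for 0 members, against 8.14% of all genes. The 3 comparisons share animals, so these counts are not independent.

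The differences between diets were also small in size. From chow to HFD the median change of the members was 0, from HFD to HFD+PE it was −0.02 and from chow to HFD+PE it was −0.02, beside 0, 0 and 0.01 over all genes. Single members ranged from −0.19 to 0.16 in the first comparison, from −0.17 to 0.32 in the second and from −0.21 to 0.24 in the third. The 95% intervals, unadjusted for the number of genes, lay wholly within 0.5 log2 units of 0 (1.41-fold) for 45, 44 and 44 of the 45 members. They lay within 0.3 log2 units (1.23-fold) for 28, 29 and 29. Differences smaller than these widths were not resolved with 5 animals a group. The groups overlapped or tied for all 45 members in all 3 comparisons. Over all genes, they did not overlap for 0.521%, 0.134% and 1.41%, and 0 of 45 is near those shares.

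**Figure D1:**
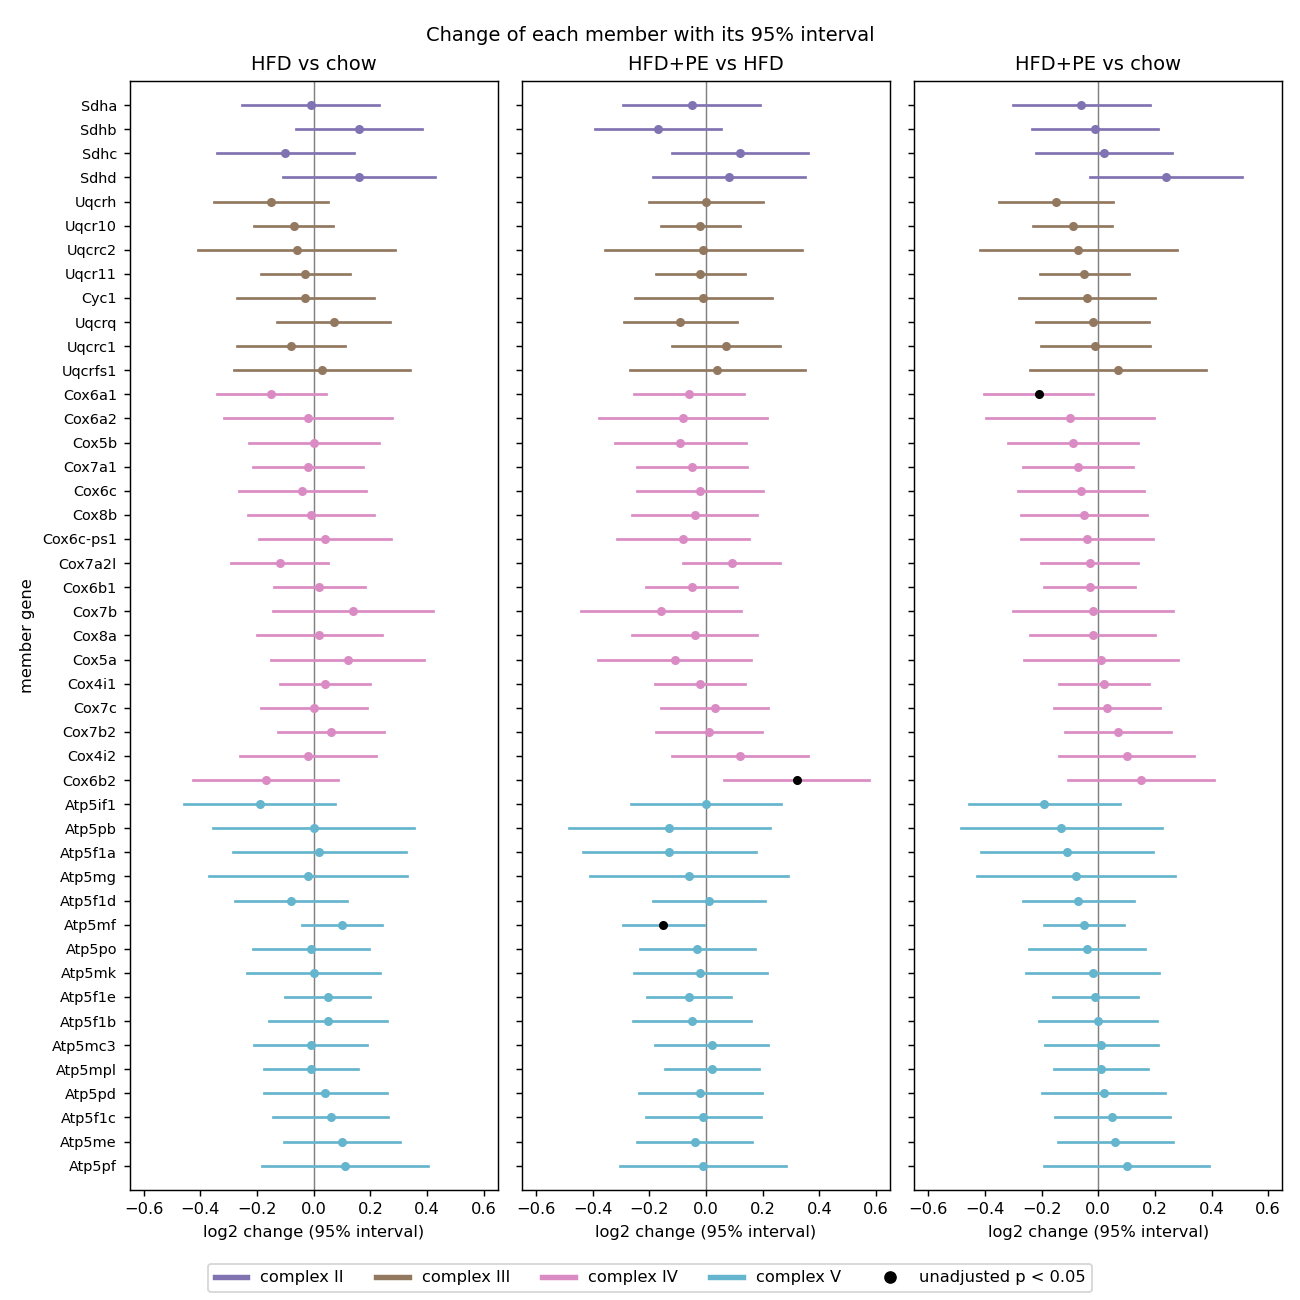
Log2 change of each of the 45 members (points) with its unadjusted 95% interval (lines) in the 3 comparisons, coloured by complex, with black points for an unadjusted p under 0.05. Nearly all intervals cross 0, and the 3 black points are Cox6b2 and Atp5mf in HFD+PE against HFD and Cox6a1 in HFD+PE against chow.

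The number of members on each side of 0 turned on single animals and on the fit. Of the 45 members, 31 were lower in HFD+PE than in HFD, beside 46.6% of all genes, and 12 were higher, beside 49.2%. Against chow, 29 were lower, beside 45.6%, and 15 higher, beside 51.1%. Without HFD+PE 1 the counts of lower members were 15 and 17. Without HFD+PE 3-4 they were 38 and 39, and with HFD+PE 3 and 4 counted as separate animals they were 17 and 19. For HFD against chow, 22 members were lower, beside 46.6% of all genes, and 19 higher, beside 49.9%, and without HFD 3 the count of lower members was 14. Which side of 0 most members fell on therefore differed with which animals were in the mean. It also differed with all animals kept, when array measures described below were covariates. With the hybridization controls, 34 members were lower in HFD than in chow, beside 48.5% of all genes. With the 3′ minus 5′ control level, 16 were lower in HFD+PE than in chow, beside 47.4%. With arrays centred on their median, 33 were lower in HFD+PE than in chow, beside 52.2%.

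Complex by complex, the mean over the members in each animal overlapped between diets. Relative to the chow mean, complex II was at 0.05 ± 0.20 (SD, n = 5) in HFD and 0.05 ± 0.12 in HFD+PE, beside an SD of 0.18 in chow. Complex III was at −0.04 ± 0.13 in HFD and −0.04 ± 0.14 in HFD+PE, beside 0.10 in chow. Complex IV was at −0.01 ± 0.07 and −0.02 ± 0.11, beside 0.07 in chow, and complex V was at 0.01 ± 0.12 and −0.03 ± 0.18, beside 0.11 in chow. For all 4 complexes, the mean difference from chow was smaller than the SD between animals of either diet, and the groups overlapped.

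**Figure D2:**
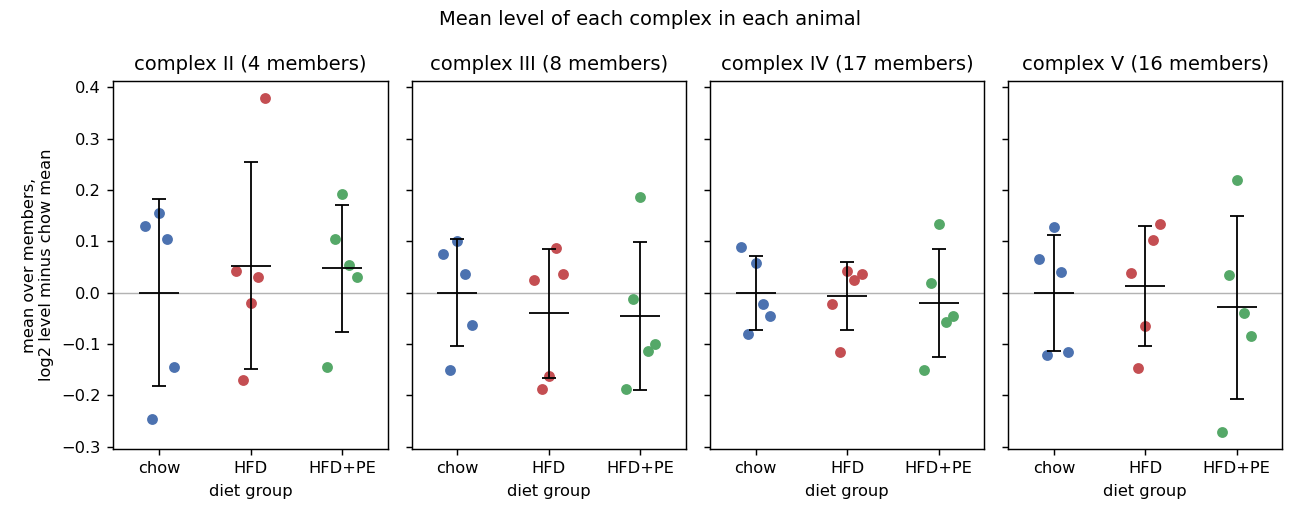
Mean log2 level over the members of complexes II, III, IV and V in each animal (points), minus the chow mean, with the mean and SD of each diet group. The 3 groups overlap in all 4 complexes, and the spread between animals within a group exceeds the differences between group means.

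Complex II is the succinate dehydrogenase of 4 nuclear-encoded subunits, and it held the members with the largest positive changes from chow. Sdhd, a membrane anchor that takes part in binding ubiquinone, was at 10.6, 10.1, 10.7, 10.7 and 10.4 in chow 1, 2, 3-4, 5 and 6. It was at 10.6, 10.5, 10.6, 10.6 and 11.0 in HFD 1-2, 3, 4, 5 and 6, and at 10.5, 10.7, 11.0, 10.8 and 10.7 in HFD+PE 1, 2, 3-4, 5 and 6. Chow 2 was the lowest animal, HFD 6 and HFD+PE 3-4 were the highest, and the groups overlapped. The change was 0.24 (SE 0.13, adjusted p = 0.523, limma) for HFD+PE against chow, 0.16 for HFD against chow and 0.08 for HFD+PE against HFD. Without chow 2 the first was 0.14 and the second 0.06, and without HFD 6 the second was 0.08. The third ran from 0.01 (without HFD+PE 3-4) to 0.17 (without HFD 6) when single animals were left out. The first had an unadjusted p of 0.0355 to 0.0458 without chow 3-4, chow 5 or HFD+PE 1. A dimmer Sdhd probe set gave 0.05, 0.04 and 0.01 for the same comparisons.

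Sdhb, the iron-sulphur subunit that carries electrons from the flavin towards ubiquinone, was at 10.9, 10.7, 11.0, 11.0 and 10.8 in the chow animals, in the same order. It was at 11.0, 10.8, 11.1, 11.0 and 11.3 in the HFD animals and at 10.6, 11.1, 10.95, 10.8 and 10.9 in the HFD+PE animals. HFD 6 was the highest and HFD+PE 1 the lowest, and the 3 groups shared most of their range. Its change was 0.16 (SE 0.11) for HFD against chow and −0.17 for HFD+PE against HFD. Without HFD 6 these were 0.10 and −0.10, and without HFD+PE 1 the latter was −0.10, while without HFD 3 or HFD+PE 2 it was −0.23 with an unadjusted p of 0.0457 and 0.0492. Sdha, the catalytic flavoprotein, averaged 10.46 ± 0.19 (SD, n = 5), 10.45 ± 0.23 and 10.40 ± 0.12 in chow, HFD and HFD+PE. Sdhc, the other membrane anchor, averaged 10.64 ± 0.21, 10.54 ± 0.23 and 10.66 ± 0.09. The 4 subunits of this complex thus did not share a direction: 2 were higher and 2 lower in each comparison.

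In complex III, 6 of 8 members were lower in HFD than in chow and 7 of 8 were lower in HFD+PE than in chow, with a median change of −0.04 in both and no unadjusted p under 0.05. Uqcrh, the hinge protein between cytochrome c1 and cytochrome c, was at 11.0, 10.9, 10.95, 10.8 and 10.8 in the chow animals. It was at 10.9, 10.7, 10.4, 10.9 and 10.8 in the HFD animals and at 10.8, 10.7, 10.9, 10.6 and 10.7 in the HFD+PE animals. HFD 4 was the lowest animal, and the change from chow was −0.15 (SE 0.10) in HFD and in HFD+PE. Without HFD 4 the HFD value was −0.06. Uqcr10, a small accessory subunit, averaged 12.09 ± 0.05 in chow, 12.02 ± 0.08 in HFD and 12.00 ± 0.07 in HFD+PE.

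The subunits of complex III that carry electrons showed no larger differences. Cyc1, the cytochrome c1 haem protein, averaged 10.05 ± 0.10, 10.02 ± 0.19 and 10.01 ± 0.24 in chow, HFD and HFD+PE. Uqcrfs1, the Rieske iron-sulphur protein, averaged 10.53 ± 0.32, 10.56 ± 0.23 and 10.60 ± 0.19. Uqcrc1 and Uqcrc2 are the core proteins that face the matrix and carry no redox group. Uqcrc1 averaged 11.00 ± 0.14, 10.92 ± 0.08 and 10.99 ± 0.17. Uqcrc2 averaged 9.96 ± 0.23, 9.90 ± 0.34 and 9.89 ± 0.29, and its lowest value, 9.3 in HFD 3, lay well below the other HFD animals at 10 to 10.1. A second, much dimmer Uqcrc2 probe set gave −0.32 for HFD against chow (unadjusted p = 0.0319, limma).

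Complex IV held 2 of the 3 members with an unadjusted p under 0.05, and they were subunits with a second isoform. Cox6a1, the form of subunit VIa in liver and most tissues, was at 11.3, 11.4, 11.55, 11.5 and 11.3 in the chow animals. It was at 11.3, 11.2, 11.0, 11.4 and 11.4 in the HFD animals and at 11.2, 11.3, 11.3, 11.0 and 11.2 in the HFD+PE animals. No HFD+PE animal exceeded the lowest chow animals, and 2 of them tied with those at 11.3. The change for HFD+PE against chow was −0.21 (SE 0.09, 95% interval −0.40 to −0.02, unadjusted p = 0.0345, adjusted p = 0.407, limma). The unadjusted p was 0.0503 to 0.102 without chow 3-4, chow 5, HFD+PE 1, HFD+PE 5 or HFD+PE 6. The change was −0.15 for HFD against chow (−0.09 without HFD 4) and −0.06 for HFD+PE against HFD. Its counterpart Cox6a2, the heart and muscle form, averaged 4.32 ± 0.31, 4.30 ± 0.24 and 4.22 ± 0.13.

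Cox6b2, the testis form of subunit VIb, was among the 7 members below the median level of all genes, so that its values lie where signal and background are hard to part. It was at 3.7, 3.5, 3.75, 3.9 and 3.6 in the chow animals, at 3.4, 3.3, 3.4, 3.8 and 3.7 in the HFD animals, and at 4.2, 3.9, 3.6, 3.8 and 3.7 in the HFD+PE animals. HFD+PE 1 was the highest, and 3 HFD animals lay below every HFD+PE animal. The change for HFD+PE against HFD was 0.32 (SE 0.12, 95% interval 0.06 to 0.58, unadjusted p = 0.0177, adjusted p = 0.993, limma), and against chow it was 0.15 (0.06 without HFD+PE 1). The unadjusted p against HFD was 0.0530 without HFD 3 and 0.0600 without HFD+PE 1. The widely expressed Cox6b1 averaged 10.96 ± 0.09, 10.98 ± 0.04 and 10.93 ± 0.14 in chow, HFD and HFD+PE, with no such difference.

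The other forms and relatives of complex IV subunits showed no unadjusted p under 0.05. Cox4i1, the general form of subunit IV, averaged 11.92 ± 0.11, 11.96 ± 0.05 and 11.94 ± 0.11, while Cox4i2, a lung and oxygen-responsive form, averaged 3.63 ± 0.16, 3.61 ± 0.25 and 3.73 ± 0.13. For both forms of subunit IV, the group means differed by no more than the SD between animals of HFD+PE. Cox8a, the general form of subunit VIII, averaged 11.65 ± 0.10, 11.67 ± 0.13 and 11.63 ± 0.23, and the heart and muscle form Cox8b averaged 3.46 ± 0.15, 3.45 ± 0.20 and 3.41 ± 0.14. Cox7a1, the heart and muscle form of subunit VIIa, averaged 3.97 ± 0.15, 3.95 ± 0.16 and 3.90 ± 0.10. Cox7a2, the other form of subunit VIIa, had no value here. Cox7a2l, a relative with a part in supercomplexes, averaged 10.39 ± 0.10, 10.27 ± 0.07 and 10.36 ± 0.15. Cox7b and Cox6c are small subunits found in most tissues, while Cox7b2 is known mainly from testis. Cox7b averaged 12.00 ± 0.16, 12.14 ± 0.15 and 11.98 ± 0.33, and Cox7b2 3.14 ± 0.15, 3.20 ± 0.12 and 3.21 ± 0.11. Cox6c averaged 11.86 ± 0.11, 11.82 ± 0.19 and 11.80 ± 0.19, and the pseudogene Cox6c-ps1 5.20 ± 0.16, 5.24 ± 0.23 and 5.16 ± 0.13. The probe sets of the forms known from heart, muscle, lung and testis were, with Cox6c-ps1, the 7 members below the median level of all genes. Signals of different probe sets do not give the ratio of 2 forms, since probes differ in brightness.

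**Figure D3:**
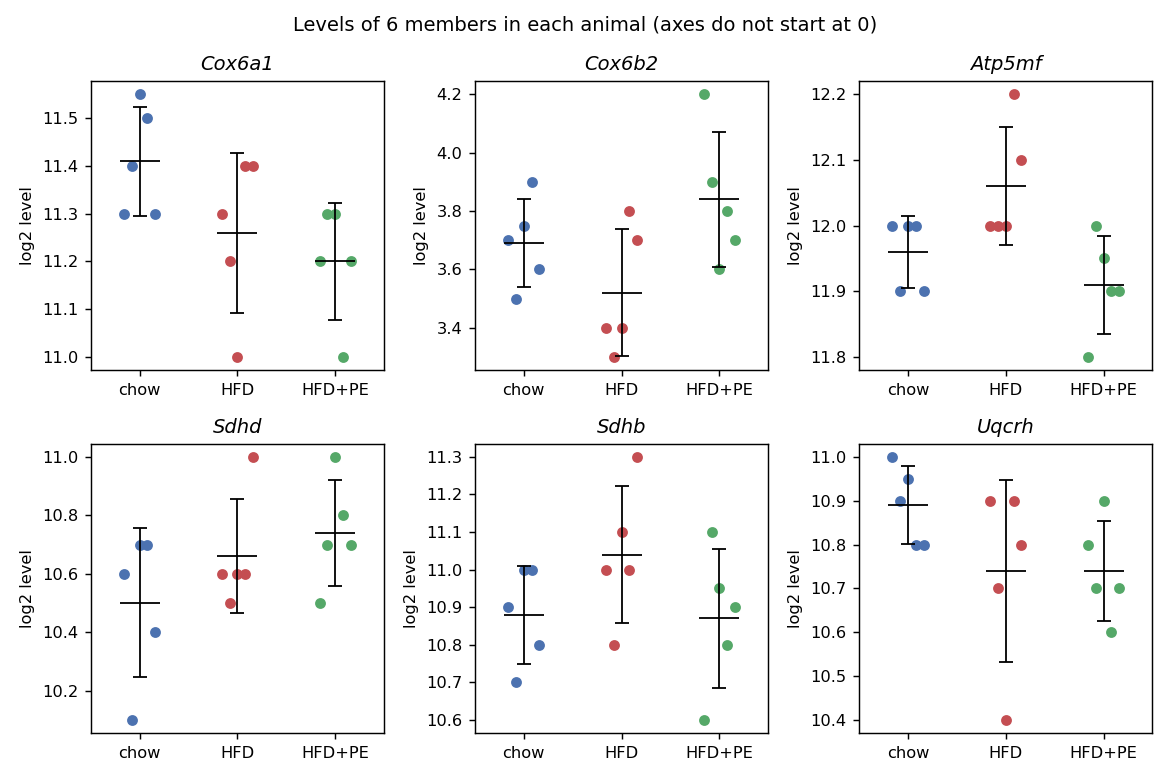
Log2 level of 6 members in each animal (points) by diet group, with the group mean and SD. The groups overlap or share tied values in every panel, including Cox6a1, Cox6b2 and Atp5mf, which had an unadjusted p under 0.05 in 1 comparison each.

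In complex V the member with an unadjusted p under 0.05 was Atp5mf, subunit f of the membrane part of ATP synthase. It was at 12.0, 11.9, 12.0, 12.0 and 11.9 in the chow animals, at 12.0, 12.0, 12.0, 12.2 and 12.1 in the HFD animals, and at 11.8, 12.0, 11.95, 11.9 and 11.9 in the HFD+PE animals. HFD 5 and HFD 6 were the highest, and HFD+PE 2 tied with the lowest HFD animals at 12.0. The change for HFD+PE against HFD was −0.15 (SE 0.07, 95% interval −0.29 to −0.01, unadjusted p = 0.0394, adjusted p = 0.993, limma). The unadjusted p was 0.0614 to 0.112 without HFD 5, HFD 6, HFD+PE 1, HFD+PE 5 or HFD+PE 6. With values rounded to 0.1, a change of this size spans 1 or 2 steps.

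The rotary and catalytic parts of ATP synthase differed little between diets. Atp5f1a and Atp5f1b, the alpha and beta subunits of the catalytic head, averaged 10.94 ± 0.18, 10.96 ± 0.27 and 10.83 ± 0.28, and 12.53 ± 0.15, 12.58 ± 0.15 and 12.53 ± 0.16. Atp5f1c, the central stalk, averaged 11.46 ± 0.11, 11.52 ± 0.08 and 11.51 ± 0.21, and Atp5mc3, a source of the proton-carrying c-ring, averaged 12.42 ± 0.11, 12.41 ± 0.15 and 12.43 ± 0.16. For each of these alpha, beta, gamma and c subunits, the diet means were therefore within 0.13 log2 units of each other. Atp5if1, which blocks the synthase from running backwards, was at 7.8, 7.7, 7.85, 7.9 and 7.8 in the chow animals. It was at 8.0, 7.5, 7.4, 7.8 and 7.4 in the HFD animals and at 7.3, 7.9, 7.8, 7.6 and 7.5 in the HFD+PE animals. The chow animals were close together and the other groups spread more widely, with a change from chow of −0.19 in both. Its other probe sets disagreed for HFD against chow, with 0.13 and −0.25. For HFD+PE against chow both were lower, with −0.12 and −0.22. The mean of its probe sets gave −0.18 for HFD+PE against chow (unadjusted p = 0.0224, adjusted p = 0.359, limma). For HFD against chow the change was −0.28 without HFD 1-2 (unadjusted p = 0.0279, adjusted p = 0.436, limma).

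Within each diet group, the members differed between animals mostly in the same direction. HFD+PE 3-4 was above the mean of its group in 42 of 45 members and below it in 3, while 51.7% of all genes were above. HFD+PE 1 was above in 6 and below in 38, where 47.2% of all genes were above. In chow, chow 1 was above in 40 members (47.9% of all genes) and chow 3-4 in 35 (47.1%), while chow 2 and chow 6 were above in 7 each (47.5% and 44.9%). In HFD, HFD 5 was above in 35 (53.3%) and HFD 6 in 31 (48.6%), while HFD 3 was above in 5 (43.2%) and HFD 4 in 16 (49.7%). Most members are bright, and among genes at or above the median level the shares above were 65.8% in HFD 5 and 32.9% in HFD 4, so these animals' counts lie nearer their background. In the same genes the shares above were 34.5% in chow 1, 40.4% in HFD+PE 1 and 51.7% in HFD+PE 3-4, and the share below was 46.3% in HFD 3. The mean over all members ran from −0.20 in HFD+PE 1 to 0.18 in HFD+PE 3-4 relative to the chow mean. Its SD between animals was 0.10 in chow, 0.10 in HFD and 0.14 in HFD+PE. The group means were −0.0002 in HFD and −0.02 in HFD+PE. Because all genes of an array share that array's RNA and normalization, such counts are a description and the members are not independent of each other.

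A measure of RNA integrity varied with the members. The arrays carry probe sets for the 3′ and 5′ ends of Gapdh and actin, and the difference between these levels is larger where the RNA is less complete at its 5′ end. It averaged 3.13 ± 0.34 in chow, 3.25 ± 0.41 in HFD and 3.38 ± 0.25 in HFD+PE (log2, n = 5 each), and the highest animal of each group was chow 2 at 3.65, HFD 3 at 3.60 and HFD+PE 1 at 3.70. These 3 animals were below their group's mean in 37, 39 and 38 of 45 members. The order was not strict: HFD 5, at 3.50, was above its group's mean in 35 members, and HFD+PE 3-4, at 3.40, in 42. HFD+PE 6, at 3.35, was above its group's mean in 7 members and below it in 33, where 46.1% of all genes were above.

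A fit with this difference as a covariate beside the group means gave each gene a slope, and the slopes were read after the data were seen. The slope was negative in 39 of 45 members, beside 50.4% of all genes. It was negative at an unadjusted p under 0.05 in 17 members (37.8%), beside 6.6% of all genes and 10.6% of genes at or above the median level, and positive in 1, Cox7a1, beside 5.84%. After adjustment, 0 members and 39 genes (0.274%) passed 0.05, and the smallest adjusted p of a member was 0.0587 (Atp5mg, a slope of −0.69). Leaving out single animals moved the 17 to between 12 (without HFD 3) and 22 (without HFD 5). After adjustment, 4 members passed without HFD 5 (smallest adjusted p = 0.0263, limma) and 1 without HFD+PE 3-4 (0.0220), while without HFD 6 the smallest was 0.298 and 0 genes passed. The part of RNA integrity in these differences between animals was not tested beyond this fit.

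By complex, the counts of negative slopes were as follows, and the difference between complexes was not tested. All 4 subunits of complex II had a negative slope at an unadjusted p under 0.05, from −0.41 for Sdhc to −0.49 for Sdhd. So had 3 of 8 members of complex III, among them Uqcrfs1 at −0.57, and 8 of 16 of complex V, among them Atp5pb, the peripheral stalk subunit, at −0.67 and Atp5f1a at −0.56. Of complex IV it was 2 of 17, Cox6c and Cox5b, where 7 of the 17 lay below the median level of all genes. Leaving out single animals gave 1 (without chow 2) to 4 (without HFD 5) for complex III, and up to 5 for complex IV (without HFD 5). For complex V it gave 5 (without HFD 3) to 9 (without HFD 5), and for complex II it remained at 4. Among 33 complex I subunits it was 17, and among 11 enzymes of the citric acid cycle it was 7. A second array measure, the level of the hybridization controls added to every sample, was high on 5 of 18 arrays (chow 1, 2 and 3, HFD+PE 1 and 3). A negative slope on it had an unadjusted p under 0.05 in 7 members (15.6%), beside 7.81% of all genes and 12.0% of genes at or above the median level, and a positive slope in 1, beside 6.49%.

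**Figure D4:**
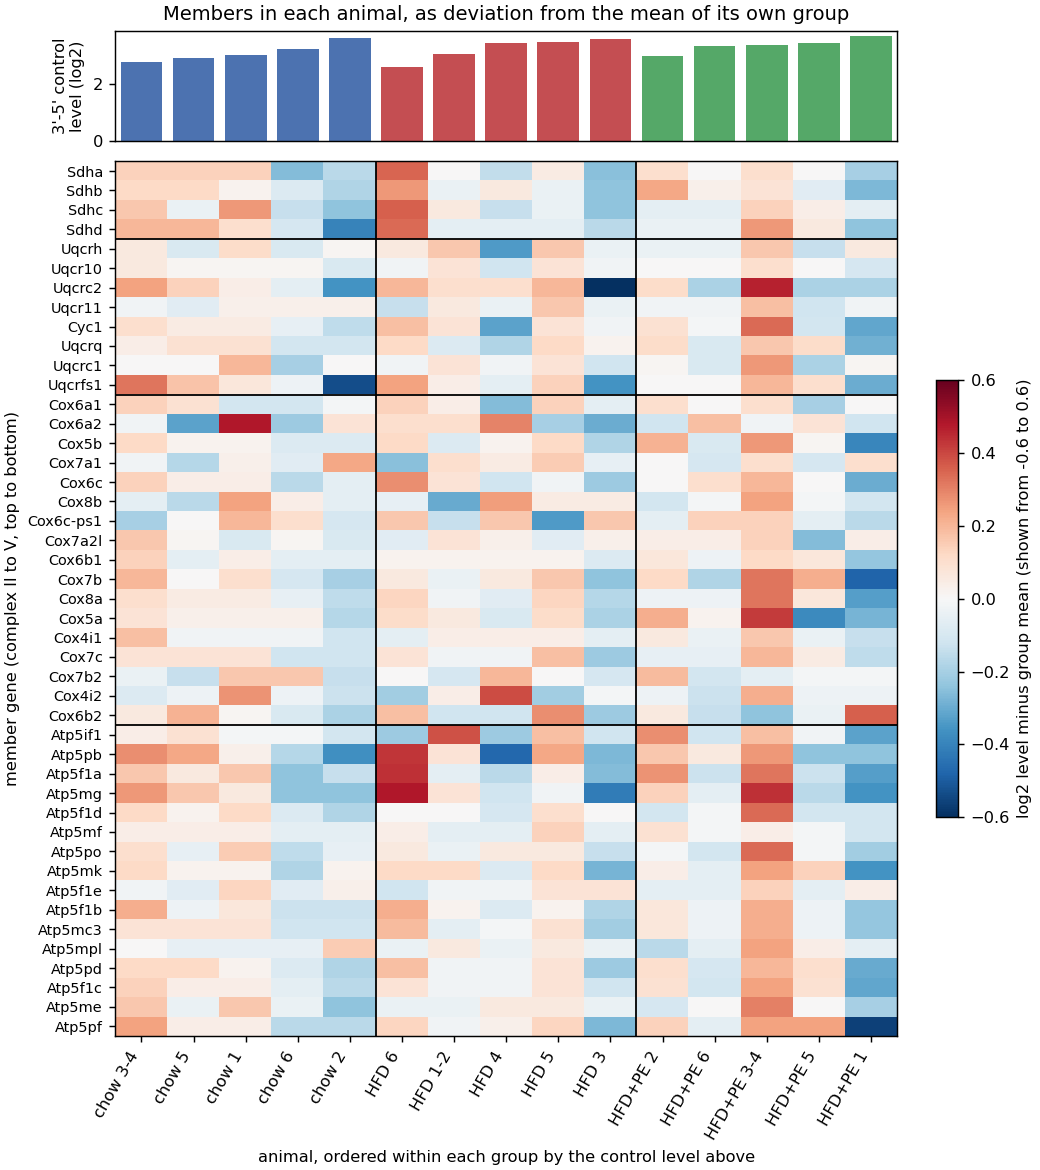
Log2 level of each member (rows) in each animal (columns, in diet groups and ordered within each by the bars above) minus the mean of its group, coloured from blue (low) to red (high), with the 3′ minus 5′ control level of each animal (log2) as bars. Chow 2, HFD 3 and HFD+PE 1 are mostly blue and have the highest bars of their groups, while HFD+PE 3-4 is mostly red.

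With the 3′ minus 5′ difference held constant, 2 of 45 members had an unadjusted p under 0.05 against chow, both subunits of complex II. By that rule, 1385 of 14217 genes differed between HFD and chow in this fit, and 1823 between HFD+PE and chow. Cox6a1 was not among them for HFD+PE against chow. Sdhd was then higher in HFD+PE than in chow by 0.36 (unadjusted p = 0.00178, adjusted p = 0.151, limma) and in HFD by 0.21 (unadjusted p = 0.0336, adjusted p = 0.490). Sdhb was higher in HFD than in chow by 0.21 (unadjusted p = 0.011, adjusted p = 0.436). Neither passed the adjusted threshold, and the dimmer Sdhd probe set did not show this size in the fit without the covariate.

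Genes that act with these subunits were read from lists drawn up with earlier results of the data known. Of 46 measured assembly factors and accessory proteins of complexes II to V, 1 was higher in HFD than in chow, 1 was higher in HFD+PE than in HFD, and 4 were higher and 2 lower in HFD+PE than in chow at an unadjusted p under 0.05. For HFD+PE against chow, 6% of all genes were higher and 5.14% lower by that rule, and 4 and 2 of 46 are near those shares. Over all genes, 4.08% were higher in HFD than in chow and 1.64% were higher in HFD+PE than in HFD. Coa7, an assembly factor of cytochrome c oxidase, was higher by 0.27 in HFD and by 0.42 in HFD+PE than in chow (SE 0.09, adjusted p = 0.104 for HFD+PE, limma), which equals the smallest adjusted p of any gene in that comparison. Cox20, which helps to insert a mitochondrially encoded subunit of the oxidase, changed by −0.23 between chow and HFD+PE. The medians of this list were 0.05 for HFD against chow and 0.05 for HFD+PE against chow, beside 0 and 0.01 over all genes.

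Of 12 regulators of respiratory genes, 3 were higher and 1 lower in HFD+PE than in chow at an unadjusted p under 0.05, beside 6% and 5.14% of all genes. The lower one was Ppargc1b, a coactivator that drives mitochondrial genes, with −0.43 against chow and −0.39 against HFD. The higher ones were Pprc1, a related coactivator, at 0.38, Gabpb1, a subunit of the factor GABP, at 0.36, and Tfb2m, a mitochondrial transcription factor, at 0.19. Against chow, Yy1, a factor that binds many promoters of this kind, was higher by 0.20 in HFD. None of these passed the adjusted threshold. The 33 complex I subunits had medians of 0.02, −0.03 and 0.01 with no unadjusted p under 0.05, and the 11 citric acid cycle enzymes had medians of 0.09, −0.01 and 0.05.

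Many promoters of respiratory genes are known to hold sites for NRF1, GABP, YY1 and Sp1, so the members' promoters were searched for their motifs. RefSeq's GRCr8 table held the window from 250 bases before to 50 bases after the start for 38 of the 45 members. On either strand, the palindromic NRF1 motif, spelled out by the capitals in Atp5po below, was in 2 (5.26%), beside 0.852% of all 33469 promoters. Its variant, a T followed by the first 9 bases of that motif, was in 2 others (5.26%), beside 0.923%. The GABP and ETS motif CCGGAAGT was in 5 (13.2%), beside 3.81%, the YY1 motif AAGATGGC in 7 (18.4%), beside 3.17%, and the Sp1 motif GGGCGG in 15 (39.5%), beside 33.1%. The shares were not particular to complexes II to V. Among 31 complex I promoters, each NRF1 motif was in 3.23% and the GABP and ETS motif in 9.68%. The YY1 motif was in 25.8% of these and the Sp1 motif in 45.2%. A match describes letters in this window and says nothing of binding in these livers. The 4 sequences below, the 100 bases just before the start read 5′ to 3′ on the gene's strand, show both kinds of match in members of complexes IV and V, with motif matches on either strand in capitals. Atp5me and Atp5po encode a membrane subunit and a stalk subunit of ATP synthase and hold the NRF1 motif, and in Atp5me the Sp1 motif is also in capitals, as its reverse complement.
Atp5me (chr14:1464760-1464859, plus strand): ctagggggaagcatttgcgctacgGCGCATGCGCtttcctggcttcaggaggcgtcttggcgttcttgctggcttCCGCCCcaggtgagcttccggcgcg
Atp5po (chr11:44657484-44657583, minus strand): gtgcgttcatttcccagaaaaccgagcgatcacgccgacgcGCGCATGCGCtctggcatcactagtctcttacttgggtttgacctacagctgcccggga
Cox5b and Cox8a encode subunits Vb and VIII of cytochrome c oxidase and hold the GABP and ETS motif, which in Cox8a occurs at 2 places as its reverse complement.
Cox5b (chr9:46417737-46417836, plus strand): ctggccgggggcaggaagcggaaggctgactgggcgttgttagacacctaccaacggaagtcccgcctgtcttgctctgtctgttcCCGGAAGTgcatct
Cox8a (chr1:213833624-213833723, minus strand): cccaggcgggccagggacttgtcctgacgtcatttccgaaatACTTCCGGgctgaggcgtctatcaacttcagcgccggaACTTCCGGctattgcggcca
In the animals, the 4 genes differed between group means by at most 0.10 log2 units. Atp5me averaged 10.54 ± 0.17, 10.64 ± 0.05 and 10.60 ± 0.19 in chow, HFD and HFD+PE, and Atp5po 11.35 ± 0.12, 11.34 ± 0.09 and 11.31 ± 0.21. Cox5b averaged 11.18 ± 0.08, 11.18 ± 0.13 and 11.09 ± 0.26, with HFD+PE 1 the lowest animal at 10.7 and HFD+PE 3-4 the highest at 11.35. Cox8a had the same lowest and highest animals, at 11.3 and 11.95.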

How the data were processed

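Liver RNA was measured on 18 Affymetrix arrays. RMA and Affymetrix Expression Console are named in the submitters' processing notes, with no version given in the sources used here. What the authors deposited is a table of log2 signals, 31099 probe sets per array, from 2.2 to 15, rounded to 0.1. Of these, 57 controls were left out, and 20826 carried 1 gene symbol. Another 436 carried several symbols and were not used. Among those, 7 held a symbol of Cycs, Cox5a, Uqcrb, Cox7a2, Atp5mc1 or Atp5mc2, of which only Cox5a had a value from another probe set. Each of 14217 genes was represented by the probe set of highest mean. Precision is limited by the number of animals and by the rounding. The labels call all 18 arrays biological replicates. The 3 closest pairs were averaged, an inference from the values, which left 15 animals.

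The 3 diets were compared in R 4.3.3 with limma 3.58.1 (lmFit with 1 mean per group, eBayes, Benjamini-Hochberg adjustment over all 14217 genes, two-sided). The fit was tested on simulated data. Members and lists were chosen with earlier results of these data known. Named members were those with an unadjusted p under 0.05 in any comparison, otherwise the 2 of a complex with the smallest F-test p. The forms of subunits with isoforms were also named, as far as they had a value. Catalytic and electron-carrying subunits, Atp5mg and Atp5pb, and members whose promoters are printed were added for their role or slope after values were known. Alternatives were 11 other settings, each of the 15 animals left out in turn, and 2 added after seeing the data.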

Additional observations from a re-analysis of the deposited data

Results flagged for a closer look

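In 10 of 150 groups of 5 animals (135 of single members and 15 of means over members), the animal at one end lay far from the rest, its gap to the nearest animal making up over 0.71 of the group's range; chance gives about 1 in 20 such groups. In HFD, Sdhd (share of the range 0.8) was at 11.0 in HFD 6 and 10.5 to 10.6 in the others. Uqcrc2 in HFD (0.875) was at 9.3 in HFD 3 and 10 to 10.1 in the others. Cox6b1 in HFD (share 1) was at 10.9 in HFD 3 and 11.0 in the others, which is 1 rounding step. In chow, Cox4i2 (0.75) was at 3.9 in chow 1 and 3.5 to 3.6 in the others. In HFD+PE, Cox4i2 (0.714) was at 3.95 and Cox8b (0.714) at 3.65 in HFD+PE 3-4, against 3.6 to 3.7 and 3.3 to 3.4 in the others. Cox7a2l in HFD+PE (0.75) was at 10.1 in HFD+PE 5 and 10.4 to 10.5 in the others. Atp5f1d in HFD+PE (0.778) was at 10.85 in HFD+PE 3-4 and 10.4 to 10.5 in the others. Cox5a in chow (0.8) was at 6.7 in chow 2 and 6.9 to 6.95 in the others. Atp5mpl in chow (0.75) was at 11.0 in chow 2 and 10.8 to 10.85 in the others.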

How the results depend on the processing

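The number of members with an adjusted p under 0.05 was 0 in all 3 comparisons under all 28 alternatives. The mean change of each complex moved by less than the SD between animals in all of them. Where single animals were left out this was certain beforehand, since in groups of this size that cannot move a mean by an SD. The sign of the mean change was not kept in 15 of 28 alternatives for complex III between HFD+PE and HFD. For complex III between HFD and chow it was kept in all 28, and the remaining complexes and comparisons lay between these. Over all genes, 145 passed between HFD+PE and chow with 18 separate arrays, 119 with the replicate block, 144 with the description number as a block and 26 without HFD+PE 3-4, and at most 3 under the other alternatives. Counts at an unadjusted p under 0.05 moved by 1 or 2 members. For HFD against chow (0 members), the count was 1 with the hybridization controls as a covariate, 2 with the 3′ minus 5′ control level as a covariate and 1 with the most variable probe set of each gene, and 0 to 1 when single animals were left out. For HFD+PE against HFD (2 members), it was 1 with the replicate block, with the hybridization controls or the 3′ minus 5′ level as a covariate and without dim genes, and 0 on arrays with low hybridization controls and, an alternative chosen after seeing the data, without the 3 animals of highest 3′ minus 5′ level. Leaving out single animals gave 0 to 3. For HFD+PE against chow (1 member), it was 2 with 18 separate arrays, with the replicate block, with the number in the sample descriptions as a block and with the mean of a gene's probe sets. It was 2 with HFD+PE 3 and 4 as separate animals and 0 without those 3 animals, both chosen after seeing the data, and 0 to 2 when single animals were left out. With the 3′ minus 5′ level as a covariate it remained 1, but that member was Sdhd and not Cox6a1. Cox6a1 kept an unadjusted p under 0.05 in 21 of 28 alternatives (adjusted p 0.212 to 0.677), Cox6b2 in 23 of 27 (0.948 to 1) and Atp5mf in 18 of 28 (0.948 to 1). Replicate numbers did not pair the animals: in 8 of 36 comparisons of an array with another group, it correlated best with its own number, and same-numbered deviations correlated from −0.305 to 0.189. P-values measure only the spread between these samples.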
